A study of Mus musculus with 10 samples.

Results

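The G1 cell cycle control genes examined here were the D-type cyclins Ccnd1, Ccnd2 and Ccnd3, the kinases Cdk4 and Cdk6, the Cip/Kip inhibitors Cdkn1a, Cdkn1b and Cdkn1c, the INK4 inhibitor Cdkn2c and the retinoblastoma gene Rb1. They were taken by symbol, through the Ensembl gene ID, from a table of read counts for 55416 genes. All 10 were found and all 10 passed the filter on low counts, among 20550 genes tested. The study recovered RNA from mouse pituitary with antibodies to the RNA-binding proteins Musashi1 and Musashi2 and compared it with RNA recovered by control rabbit IgG. Lysates of 6 pooled pituitaries from control mice of the sighted FVB line (FVB.129P2‐Pde6b+Tyrc‐ch/Ant), aged 8 to 10 weeks, were each divided between IgG and the antibody mixture (Musashi IP), on a separate occasion for each lysate. Lysates 2, 5 and 6 came from females and lysates 3 and 7 from males, which gave 10 libraries. The antibodies were used together, so binding to Musashi1 and to Musashi2 cannot be told apart. No input RNA was analysed here, so a level in IgG is that of RNA recovered without a specific antibody.

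D-type cyclins bind CDK4 and CDK6 and bring them to phosphorylate the retinoblastoma protein, which frees E2F transcription factors and lets a cell pass from G1 into S phase. INK4 proteins such as that of Cdkn2c inhibit CDK4 and CDK6, while Cip/Kip proteins bind cyclin-CDK complexes more broadly. The pituitary is sensitive to this pathway: mice that lack Cdkn1b or Cdkn2c, or carry a single working Rb1 allele, develop pituitary tumours, mice that lack Cdk4 have a small anterior pituitary, and Cdkn1c acts when pituitary progenitors leave the cell cycle. Musashi proteins bind short UAG-containing motifs, mainly in the 3′ UTR (untranslated region) of an mRNA, and alter its translation; Cdkn1a is a target known from other work.

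T stands for U in the sequences printed here. The shortest motif word counted was GTAGT, which may begin with A in place of G to give ATAGT. The next form carries an additional T and reads GTTAGT when it begins with G, or else ATTAGT when it begins with A. The longest form is GTTTAGT when it begins with G, or else ATTTAGT when it begins with A. Words were sought on the mRNA strand only, and overlapping matches were counted. It was searched in the longest annotated 3′ UTR of each gene (GENCODE release M21, GRCm38), and all 10 genes matched. Of the 10, 8 held the motif and Ccnd3 and Cdk4 did not. The windows below show every site in Ccnd1, Cdkn1a, Cdkn1c and Cdkn2c and examples from the genes with more sites. Capitals mark the motif, and the number is the distance in bases of the motif's first base from the stop codon.
Ccnd1, base 29: gggagccaccaaGTAGTggcacccgcaaag
Ccnd1, base 744: ggtagggatgaaATAGTgacataatatatt
Ccnd1, base 1048: gttgtagggctgGTAGTatgaggtgcttgg
Ccnd2, base 445: aggaccgcatgaGTAGTttgcaaagcagtg
Ccnd2, base 3284: tgggtctccttgGTAGTatttctgtctcag
Ccnd2, base 4925: ctaaagtagcagATTAGTgtgaataaaaaa
Cdkn1a, base 219: aaacaaacctaaATTAGTaggacggtaggg
Cdkn1b, base 96: gactgctggcagATTAGTtgcctgccagga
Cdkn1b, base 2030: tcggagatacctGTAGTcttcagaccttta
Cdkn1c, base 1: GTTAGTttagaggctaacggccagagagaa
Cdkn2c, base 38: ctcacactgtccGTTAGTtggttggctgtc
Cdk6, base 2748: gttggttagttGTTTAGTttgtttttttgt
Rb1, base 1363: ttttgtcctcaATTTAGTttcagttttact
Rb1, base 1463: atcatcacacagATTAGTtaggttttaggt
The Cdkn1c motif begins at the first base after the stop codon. In Cdk6, a GTTAGT at base 2741 lies just before the site shown and can be read in the lower-case flank.

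The libraries held 6673425 to 9354745 counts in IgG and 8742084 to 13019326 in Musashi IP. Lysate 6 stood apart: the SD of the log2 ratio of Musashi IP to IgG over all tested genes was 1.03 there, against 0.48 to 0.63 in the other lysates. The 3804 genes called higher had a median log2 ratio of 1.57 in lysate 6 and of 0.45, 0.51, 0.87 and 0.81 in lysates 2, 3, 5 and 7. The fold changes of the 10 genes are therefore given with and without lysate 6. The tissue label was checked against hormone mRNAs, whose summed level was 12960 to 51216 CPM (counts scaled to the size of each library, with TMM factors) in IgG. Of 7 hormone genes, Lhb was at 0 counts in every library. The annotation used for counting is not given in the sources used here, so whether Lhb mRNA was absent cannot be told. Fshb, which encodes the beta subunit of follicle-stimulating hormone, was the only one of the 6 tested to pass: it was 4.86-fold higher in Musashi IP and higher in 5 of 5 lysates (log2 2.28 ± 0.37, adjusted p = 0.00492, edgeR; 1.88 without lysate 6). Its call was lost without the lysate block (adjusted p = 0.0649, edgeR). It was kept without the block when sex was a term, an alternative chosen after seeing the data (log2 2.65, adjusted p = 0.00278, edgeR). Over protein-coding genes 25.7% were called higher.

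Ccnd1 and Ccnd2, all 3 Cip/Kip inhibitors and Cdk6 were enriched in Musashi IP, while Ccnd3, Cdk4, Cdkn2c and Rb1 did not pass the test. In all, 6 of the 10 genes rose and 0 fell (edgeR with the lysate as a block, Benjamini-Hochberg adjusted p under 0.05 over all genes tested). Over all genes tested 18.5% were called higher and 8.4% lower, and over protein-coding genes 25.7% and 4.01%. The split of all genes moved with the scaling, from 3804 higher and 1727 lower to 3153 and 4068 with library totals. That of protein-coding genes moved from 3656 and 569 to 2924 and 2973 when the fit was restricted to them. The shares of 25.7% and 4.01% therefore hold for the main fit only. The median log2 fold change of the 10 was 0.77, beside -0.07 over all genes tested and 0.09 over protein-coding genes. Without lysate 6 the count of higher members was also 6, beside 17.5% of all genes tested, and the median of the 10 was 0.57. Within all 5 lysates, 6 of the 10 were higher (22.4% of genes tested) and 1, Cdk4, was lower (18.6%). The groups did not overlap for Ccnd1, Ccnd2, Cdkn1b and Cdkn1c, in which the lowest Musashi IP level lay above the highest IgG level, as for 9.7% of genes tested.

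**Figure D1:**
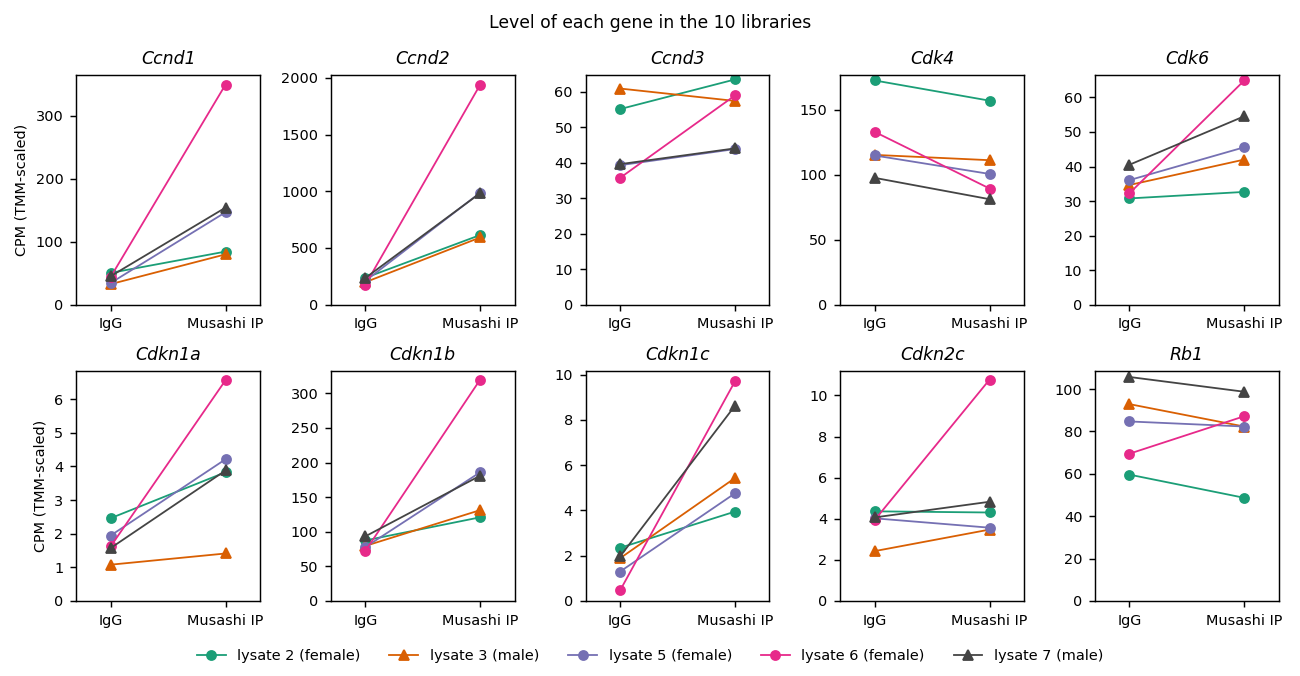
TMM-scaled CPM of each gene (vertical axis, from 0) in IgG and Musashi IP, with a line for each lysate, circles for females and triangles for males. Ccnd2 rose in every lysate, from 175 to 236 CPM in IgG to 592 to 1942 CPM in Musashi IP, while the Cdk4 lines run slightly downward.

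Among the D-type cyclins, Ccnd2 was enriched most. Its level in IgG was 236, 197, 209, 175 and 235 CPM in lysates 2, 3, 5, 6 and 7. In Musashi IP it was 614, 592, 988, 1942 and 984 CPM in the same order. Every Musashi IP library was above every IgG library, and lysate 6 was the highest while its IgG library was the lowest. The fold change was 4.39 (log2 2.14 ± 0.27, mean ± SE, n = 5 lysates, edgeR adjusted p = 0.00336), the 97th highest log2 fold change of the 20550 genes tested. Without lysate 6 the log2 fold change was 1.82 ± 0.13.

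Ccnd1, the cyclin through which many growth signals act, stood at 50.3, 32.5, 34.4, 44.0 and 45.1 CPM in IgG in lysates 2, 3, 5, 6 and 7. Musashi IP held 84.2, 79.8, 147, 349.6 and 154 CPM in the same order, again with no overlap between the groups and with lysate 6 highest. It rose 3.43-fold (log2 1.78 ± 0.28, n = 5 lysates, edgeR adjusted p = 0.00462), and by log2 1.48 ± 0.18 without lysate 6. In the annotation Ccnd1 shares 1100 nt of exon with LTO1 on the opposite strand, which itself was enriched (log2 1.03 ± 0.19). The kit marks strand, but the strand setting of the counting is not given in the sources used here, so reads of overlapping genes may not have been told apart.

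Ccnd3 ranged from 35.7 to 60.9 CPM in IgG and from 43.9 to 63.5 CPM in Musashi IP. It was higher in 4 of 5 lysates, with overlapping groups, and its log2 fold change of 0.23 ± 0.13 did not pass (edgeR adjusted p = 0.191). It was 0.11 without lysate 6 and -0.04 with the length and GC offset. The log2 ratio of Ccnd2 exceeded that of Ccnd3 in 5 of 5 lysates, by 1.17 to 2.75. That of Ccnd1 exceeded Ccnd3 in 5 of 5, by 0.54 to 2.27, and was below that of Ccnd2 in 5 of 5, by 0.15 to 0.64. The exact two-sided sign-flip test over 5 lysates gave p = 0.0625 for each, the smallest value it allows (0.0729 adjusted over 7 pairs of genes within a family, pairs that were chosen with the values known).

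Of the kinase genes, Cdk6 rose slightly and Cdk4 did not pass the test. Cdk4 had 173, 115, 115, 133 and 97.5 CPM in IgG in lysates 2, 3, 5, 6 and 7, and 157, 111, 101, 89.3 and 81.1 CPM in Musashi IP. It was lower in Musashi IP in 5 of 5 lysates, but the groups overlapped, and the log2 fold change of -0.24 ± 0.10 did not pass (n = 5 lysates, edgeR adjusted p = 0.103), and was -0.16 ± 0.07 without lysate 6. Cdk4 passed as lower under 4 other settings, among them library totals in place of TMM (log2 -0.42, adjusted p = 0.0348, edgeR) and an offset for gene length and GC content (-0.48, 0.0177). Tspan31, which shares 641 nt of exon with Cdk4 on the opposite strand, was higher in Musashi IP (log2 0.79 ± 0.20).

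Cdk6 had 30.8, 34.6, 36.1, 32.2 and 40.5 CPM in IgG and 32.6, 42.0, 45.6, 64.9 and 54.6 CPM in Musashi IP. It was higher in 5 of 5 lysates, with overlapping groups, and its 1.35-fold rise was close to the threshold (log2 0.43 ± 0.14, n = 5 lysates, edgeR adjusted p = 0.0480). The call was kept without lysate 6 (log2 0.29, adjusted p = 0.0445, edgeR) or lysate 2, and lost without lysate 3, 5 or 7 (0.101, 0.122 and 0.150). In all, 10 of 15 alternatives ended it, among them library totals (0.0863), DESeq2 (0.0625), DESeq2 size factors (0.0620), the 2 CPM filter (0.0606), protein-coding genes only (0.124) and no lysate block, without (0.114) or with (0.0761) sex as a term (edgeR where no other tool is named). The log2 ratio of Cdk4 was below that of Cdk6 in 5 of 5 lysates, by 0.22 to 1.58 (exact sign-flip p = 0.0625).

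**Figure D2:**
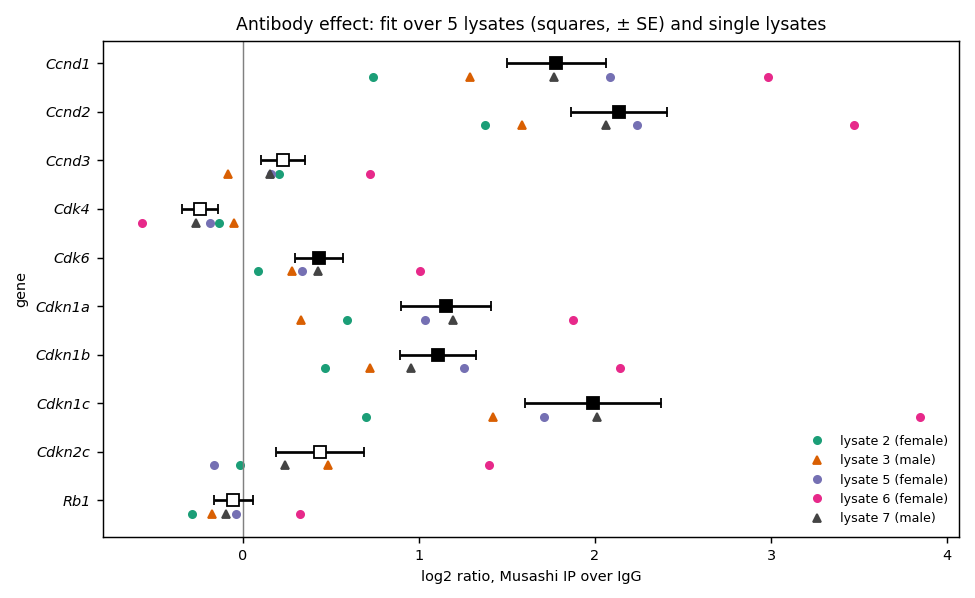
Log2 ratio of Musashi IP to IgG (horizontal axis) for each gene: squares are the edgeR fit over 5 lysates with its SE, filled where adjusted p was under 0.05, and small symbols are single lysates. The fits for Ccnd2 (2.14), Cdkn1c (1.99) and Ccnd1 (1.78) lie farthest to the right, and lysate 6 has the highest single value in every gene but Cdk4, where it has the lowest.

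The Cip/Kip inhibitors rose together, from very different levels. Cdkn1b, the inhibitor that holds many resting cells out of the cycle, had 87.4, 79.5, 77.8, 72.4 and 93.4 CPM in IgG in lysates 2, 3, 5, 6 and 7. Musashi IP held 121, 131, 186, 319.9 and 181 CPM, so the groups did not overlap. It rose 2.15-fold (log2 1.10 ± 0.22, n = 5 lysates, edgeR adjusted p = 0.00866), and by 0.85 ± 0.11 on the log2 scale without lysate 6.

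Cdkn1c was a low-count mRNA, with 21, 14, 10, 4 and 15 counts in the IgG libraries of lysates 2, 3, 5, 6 and 7 and 33, 50, 44, 99 and 100 in Musashi IP. As CPM these were 2.35, 1.89, 1.30, 0.464 and 1.97 against 3.95, 5.43, 4.75, 9.70 and 8.62, with no overlap. It rose 3.97-fold (log2 1.99 ± 0.39, n = 5 lysates, edgeR adjusted p = 0.00857). Its single-lysate log2 ratios ran from 0.70 in lysate 2 to 3.85 in lysate 6, where the IgG value rests on 4 counts, and without that lysate the log2 fold change was 1.56 ± 0.25.

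Cdkn1a, a target of p53 and a known Musashi target, was also sparse, with 22, 8, 15, 14 and 12 counts in IgG and 32, 13, 39, 67 and 45 in Musashi IP. In CPM the IgG libraries held 2.46, 1.08, 1.95, 1.62 and 1.57 and the Musashi IP libraries 3.83, 1.41, 4.21, 6.56 and 3.88. It was higher in Musashi IP within all 5 lysates, but the groups overlapped, because Musashi IP of lysate 3 lay below IgG of lysates 2, 5, 6 and 7. The fold change was 2.22 (edgeR adjusted p = 0.0135), with a call that was lost without lysate 5 (0.0577), without lysate 7 (0.0542) or without the lysate block (0.0503), and kept without lysate 6 (log2 0.90, 0.0207). Without the block but with sex as a term, an alternative chosen after seeing the data, the call was kept (adjusted p = 0.0150, edgeR). The log2 ratio of Cdkn1c exceeded that of Cdkn1a and of Cdkn1b in 5 of 5 lysates (exact sign-flip p = 0.0625 for each), and Cdkn1a exceeded Cdkn1b in 2 of 5 (mean difference -0.10, SD 0.27, exact p = 0.438).

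Cdkn2c had 18 to 39 counts in IgG and 32 to 110 in Musashi IP, or 2.43 to 4.36 and 3.47 to 10.8 CPM. The Musashi IP libraries of lysate 6 and lysate 7 (4.83 CPM) lay above every IgG library, and the other 3 lay within the IgG range. It was higher in 3 of 5 lysates, with log2 0.44 ± 0.25 (edgeR adjusted p = 0.211), or 0.13 ± 0.19 without lysate 6. Rb1 had 59.6, 92.9, 84.7, 69.5 and 106 CPM in IgG and 48.7, 82.3, 82.3, 87.2 and 98.7 in Musashi IP. It was lower in lysates 2, 3, 5 and 7 and higher in lysate 6, with log2 -0.06 ± 0.11 (edgeR adjusted p = 0.720). Its log2 fold change was -0.15 ± 0.08 without lysate 6 and 0.05 ± 0.12 without lysate 2. Lpar6, which lies within Rb1 on the opposite strand and shares 408 nt of exon with it, was lower in Musashi IP (log2 -0.47 ± 0.12). Rcbtb2, also on the opposite strand, shares 488 nt of exon with Rb1 and did not pass (log2 -0.02 ± 0.09, edgeR adjusted p = 0.909). Rb1 passed as lower only when the fit was restricted to protein-coding genes (log2 -0.26, adjusted p = 0.0387, edgeR).

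Compared per kilobase of exon, the order of the levels differed between the antibodies. In IgG the mean was highest for Cdk4, at 39.0 ± 8.79 CPM per kb (SD, n = 5), followed by Ccnd2 at 22.4 ± 2.76, Cdkn1b at 18.0 ± 1.82, Rb1 at 13.7 ± 3.05, Ccnd1 at 8.76 ± 1.61, Ccnd3 at 5.26 ± 1.27, Cdk6 at 2.49 ± 0.27, Cdkn2c at 1.40 ± 0.284, Cdkn1c at 0.781 ± 0.360 and Cdkn1a at 0.489 ± 0.144 CPM per kb. The ranges of neighbours in this order overlapped, except between Cdk4 and Ccnd2, between Ccnd3 and Cdk6 and between Cdk6 and Cdkn2c. In Musashi IP Ccnd2 stood first at 109 ± 58.2 CPM per kb, Cdkn1b next at 41.3 ± 17.4, Ccnd1 at 34.6 ± 23.3 and Cdk4 at 33.2 ± 9.15, while Rb1 was at 13.3 ± 3.10 and Cdkn1a was again last at 1.12 ± 0.514. The ranges of Ccnd2 and Cdkn1b overlapped there. Those of Cdkn1b, Ccnd1 and Cdk4 also overlapped, and the order of these 3 rested on lysate 6. Without it, a comparison chosen after seeing the data, Ccnd2 was at 84.4 ± 23.5 CPM per kb, Cdk4 at 34.6 ± 9.91, Cdkn1b at 34.0 ± 7.36 and Ccnd1 at 24.7 ± 8.42 (SD, n = 4). The summed level of the 10 genes was 568 to 701 CPM in IgG and 1107 to 2939 CPM in Musashi IP.

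The number of motif words is given beside the enrichment as a description. Rb1 had the highest density, 6 motifs in 1709 nt or 3.51 per kb, and 15.4% of tested genes with a 3′ UTR within 20% of that length held as many; its log2 fold change was -0.06. Cdkn1b held 9 motifs in 3439 nt (31.0% of similar 3′ UTRs held as many), and Ccnd2 held 8 in 5173 nt (72.2%). Ccnd1 held 3 in 2676 nt, fewer than the median of 5 for that length, and Cdk6 held 19 in 10217 nt against a median of 21. Cdkn1a, Cdkn1c and Cdkn2c held 1 each, and 85.0%, 61.2% and 37.6% of similar 3′ UTRs held at least 1. Of 3′ UTRs as long as those of Cdk4 and Ccnd3, which held 0, 70.9% and 71.5% had a motif. A match shows only that the letters are present.

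**Figure D3:**
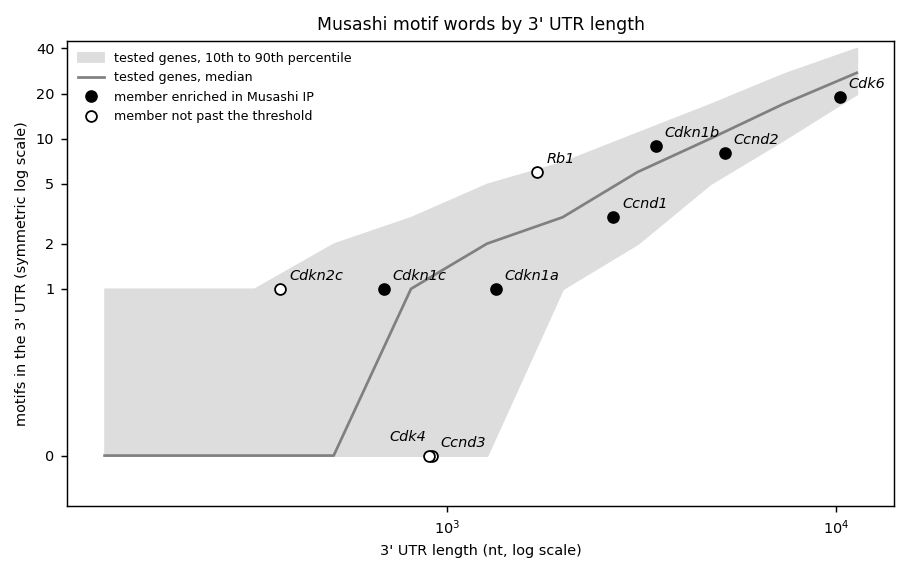
Motif words in the longest 3′ UTR (vertical axis, symmetric log scale) against its length (horizontal log axis), with filled points for members enriched in Musashi IP, open points for the others, and the median and the range from the 10th to the 90th percentile of tested genes in grey. Cdk4 and Ccnd3 lie at 0 motifs and Rb1, which did not pass, lies well above the median at 6.

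The antibody effect was also fitted within each sex. In females the log2 fold change was 2.36 ± 0.36 for Ccnd2, 1.95 ± 0.38 for Ccnd1, 2.10 ± 0.55 for Cdkn1c, 1.29 ± 0.28 for Cdkn1b and 1.25 ± 0.33 for Cdkn1a, and these 5 passed (edgeR, beside 11.6% of all genes called higher and 1.74% lower). In males, with 2 lysates, the values were 1.83 ± 0.42, 1.54 ± 0.45, 1.84 ± 0.63, 0.84 ± 0.34 and 0.94 ± 0.47 in the same order, and 0 members passed, as did 0% of all genes tested; 4 members and 2548 genes had an unadjusted p under 0.05. The female minus male difference itself lay between -0.14 (Cdk4, SE 0.23) and 0.53 (Ccnd2, SE 0.53). It was called for 0 members by edgeR (0% of all genes) or DESeq2. At an unadjusted p under 0.05 (edgeR) there were 0 members, beside 187 of 20550 genes tested. Without lysate 6 the difference was -0.02 for Ccnd2 (SE 0.27) and -0.13 for Ccnd1 (SE 0.38), and the median over the 10 genes went from 0.29 to -0.06. Without lysate 2 it went the other way, to 1.05 for Ccnd2 (SE 0.32), 1.03 for Ccnd1 (SE 0.30) and 0.88 for Cdkn1b (SE 0.28), with a median of 0.54 and again 0 members called (edgeR adjusted p = 0.263, 0.262 and 0.268). These data do not show that the sexes are alike.

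**Figure D4:**
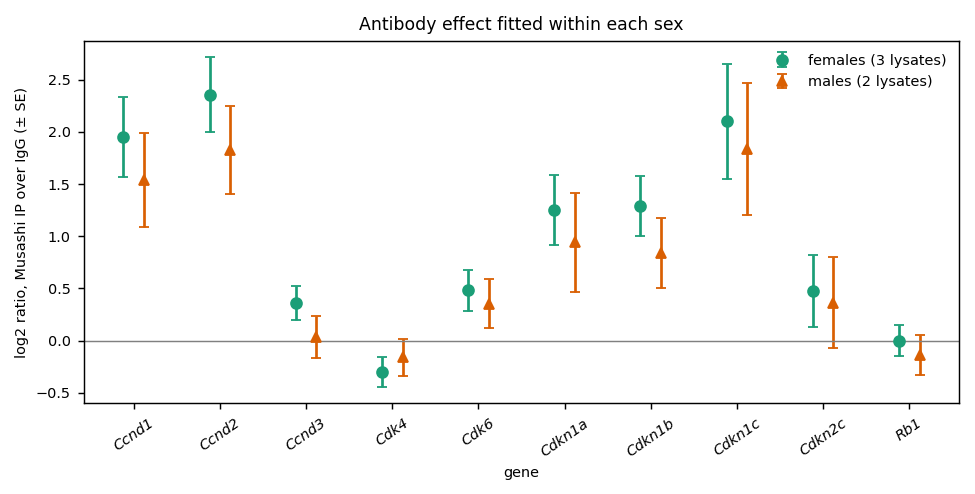
Log2 ratio of Musashi IP to IgG (vertical axis, ± SE) fitted within females (circles, 3 lysates) and males (triangles, 2 lysates). The error bars of females and males overlap in all 10 genes, with Ccnd2 at 2.36 in females and 1.83 in males.

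Levels of the 10 genes were compared between the sexes within each antibody. In IgG 0 members passed, beside 4.5% of genes called in either direction. Rb1 alone of the 10 had an unadjusted p under 0.05 (edgeR), as did 3496 of the 20987 genes tested there. Rb1 had 71.3 ± 12.6 CPM in females (SD, n = 3) and 99.3 ± 9.06 in males (n = 2). Its female minus male log2 difference was -0.48 ± 0.18 (adjusted p = 0.197, edgeR). In Musashi IP 0 members passed (2.84% of genes called), and 0 had an unadjusted p under 0.05 (edgeR), beside 3505 of 21238 genes tested. These are levels of RNA recovered with each antibody, with no input RNA analysed beside them. In whole glands, fewer cells of a type and less RNA per cell cannot be told apart.

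Other genes of G1 and S phase were read in the same fit. Of 31 other genes listed for this step, 30 were tested, of which 10 rose and 1 fell, beside the 25.7% and 4.01% of protein-coding genes called. Their median was 0.14 on the log2 scale. Those that rose most were Tfdp2, which encodes a dimerisation partner of E2F proteins, at 2.33-fold (log2 1.22 ± 0.20), E2f1 at 2.22-fold (1.15 ± 0.28), Cks1b, a small CDK-binding protein needed for degradation of the Cdkn1b protein, at 2.08-fold (1.06 ± 0.31), and the INK4 inhibitor Cdkn2d at 1.91-fold (0.94 ± 0.23), each higher in 5 of 5 lysates (largest edgeR adjusted p 0.0343). The call for Cks1b was lost without lysate 3, 5, 6 or 7 and without the lysate block (edgeR adjusted p = 0.120), though not without the block when sex was a term (0.0352). That for Cdkn2d was lost without lysate 5 or 7. Mnat1, an assembly factor of the CDK-activating kinase, fell in 5 of 5 lysates (log2 -0.37 ± 0.10, adjusted p = 0.0219, edgeR). Its call was lost without lysate 2, 5 or 7 and with no low-count filter (edgeR adjusted p = 0.0624). It was also lost without the block, both without (0.120) and with (0.0716) sex as a term. The count of higher genes in this list was 5 without lysate 5 or lysate 7, where 8.11% and 11.1% of all genes tested were called higher.

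Genes of S, G2 and M phase, such as Mki67 and Top2a, were scarce, with a summed level of 55.4 to 127 CPM in IgG and 63.3 to 123 CPM in Musashi IP over 18 genes. Of the 15 tested, Mcm2, a subunit of the replicative helicase, rose (log2 0.40 ± 0.13, adjusted p = 0.0446, edgeR) and 0 fell, beside the 25.7% and 4.01% of protein-coding genes called. Mcm2 kept its call only with limma-voom (adjusted p = 0.0485) and without lysate 2 (0.0166, edgeR). It lost it under every other alternative run, among them leaving out lysate 3, 5, 6 or 7, library totals, DESeq2 and no block. The median of the list was -0.19.

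Markers of other cells in the gland were read beside these results. Of 9 stem or progenitor markers 7 were tested, of which 4 rose and 0 fell, beside the same 25.7% and 4.01%. They included Cdh1 (log2 1.48 ± 0.24), an adhesion protein, and Ednrb (1.47 ± 0.37), whose call was lost without lysate 5 (edgeR adjusted p = 0.0842) or lysate 7 (0.0536). The summed level of the list was 52.9 to 97.5 CPM in IgG and 93.4 to 176 CPM in Musashi IP. For endothelial genes (8) and for mural and fibroblast genes (9) the test called 0 in either direction (edgeR), with summed levels of 87.9 to 384 and 301 to 1334 CPM in IgG and 76.6 to 168 and 376 to 891 CPM in Musashi IP. Of 10 immune markers 2 fell, Ptprc (log2 -0.66) and Csf1r (-0.47), and of 4 erythroid markers tested 3 fell, with Hbb-bs (-0.79) and Hbb-bt (-0.75) lowest, beside 4.01% of protein-coding genes called lower. These 4 named calls were all lost without the lysate block, that of Csf1r also without lysate 5 or 7, that of Hbb-bt without lysate 2, 5 or 7 or with the length and GC offset, and that of Ptprc without lysate 5. Their part in the enrichment of the cyclins and inhibitors was not tested.

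The tested genes whose log2 CPM followed Ccnd2 most closely over the 10 libraries, out of 10864 with a symbol and at least 8 CPM, were Gng2, Sumf1, Prkacb, Tmx4 and Cd164. Their Pearson correlations lay between 0.996 and 0.998, over libraries that share the antibody contrast and the lysates. Genes picked in this way share the antibody difference of Ccnd2, and their log2 fold changes ran from 1.61 for Sumf1 to 2.35 for Tmx4.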

How the data were processed

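The authors deposited raw read counts per Ensembl gene, without normalization. Per the submitters' processing notes, the tools were FastQC 0.11.8, Trimmomatic 0.39 and STAR 2.7.1a, with build GRCm39. Counting program, annotation and strand setting: not given in the sources used here. Symbols, exon lengths and 3′ UTRs came from GENCODE M21 (GRCm38, an older build, so no coordinates are printed); 94.1% of IDs matched.

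Genes kept by filterByExpr were scaled by TMM and tested in R 4.3.3 with edgeR 4.0.16 (quasi-likelihood, Benjamini-Hochberg, 0.05), with 4 residual degrees of freedom (3 with sex). SE is the log2 fold change over the square root of F; single-lysate log2 ratios used a prior count of 2. The lysate was the block because the labels' protocol says each lysate was split. Deviations of same-numbered libraries correlated at 0.523, 0.679, 0.602, 0.186 and 0.778 in lysates 2, 3, 5, 6 and 7. Lysate 6 correlated better with a library of another lysate (0.415) than within itself; the other 4 did not. The fit was tested on simulated data. Alternatives used DESeq2 1.42.0, limma 3.58.1 (voom), other scalings and filters, no block, a length and GC offset, and leaving out each lysate. The protocol mentions another occasion with male glands, which is not analysed here.

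All 10 members were named, with up to 4 genes per direction from the other G1 and S phase list, up to 2 from each other list, and 5 most like the member of largest fold change. Members and lists were chosen with earlier results of these data known. Of the genes that share exon with a member, those past the threshold (LTO1, Tspan31 and Lpar6) were named, with Rcbtb2 beside Lpar6.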

Additional observations from a re-analysis of the deposited data

Results flagged for a closer look

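Groups of 5 values were examined for a value far from the others, in 30 groups (IgG level, Musashi IP level and single-lysate log2 ratio of each gene), of which 3 stood out; chance alone marks about 1 group in 20. The Musashi IP library of lysate 6 held 349.6 CPM of Ccnd1, against 154 in the next highest, a gap of 0.725 of the group's range. The Musashi IP library of lysate 6 held 10.8 CPM of Cdkn2c, against 4.83 in the next highest (0.815 of the range). The IgG library of lysate 3 held 2.43 CPM of Cdkn2c, against 3.94 in the next lowest (0.784 of the range), with 18 counts.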

How the results depend on the processing

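Ccnd1, Ccnd2, Cdkn1b and Cdkn1c kept their direction and their side of the threshold in each of 15 alternatives run, and Ccnd3 and Cdkn2c did not pass in any of them. The count of higher members, 6, was 4 without the lysate block and 5 without it but with sex as a term. It was 5 with library totals, DESeq2 size factors, DESeq2, the 2 CPM filter or protein-coding genes only. When each lysate was left out it was 4 to 6. The count of lower members, 0, became 1 with library totals, 1 with the 2 CPM filter and 1 with the length and GC offset. The median over the genes tested, -0.07, was -0.24, -0.14 (over the genes that passed that filter) and -0.13 in these settings. With protein-coding genes only the count of lower members became 2. The median over those genes was then -0.12, against 0.09 for them in the main fit. Of the other G1 and S phase genes, 4 were higher without the lysate block and 5 to 11 when a lysate was left out, against 10. In the remaining alternatives 8 to 10 were higher. Lower in that list were 5 with library totals, 0 with no low-count filter, 2 with the 2 CPM filter, 4 with the length and GC offset, 6 with protein-coding genes only, 0 without the block (also with sex as a term, an alternative chosen after seeing the data) and 0 to 2 when a lysate was left out, against 1. Over all genes, 3804 higher and 1727 lower became 2407 and 176 without the block, and 3312 and 670 without it but with sex as a term. They became 3153 and 4068 with library totals, 3430 and 3214 with the 2 CPM filter, and 3211 and 3170 with the length and GC offset. With protein-coding genes only, 2924 were higher and 2973 lower, against 3656 and 569 of those genes in the main fit. When a lysate was left out the counts over all genes ran from 1676 to 4651 higher and from 187 to 2101 lower, with the lowest counts without lysate 5. The number of members with a motif, 8, was 8 in the union of annotated 3′ UTRs and 10 for TAG alone. The cause of these shifts was not tested. Depth limits Cdkn1a and Cdkn1c most, at 8 to 22 and 4 to 21 counts in IgG libraries.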
